A study of Mus musculus with 12 samples.

Results

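Neutrophil granule genes were followed in whole mouse lung at 4 time-points around birth. The group held 10 genes, chosen by name: *S100a8*, *S100a9*, *Retnlg*, *Ngp*, *Camp*, *Ltf*, *Mpo*, *Elane*, *Lcn2* and *Csf3r*. All 10 were present among the 51825 genes of the CPM table (reads of a gene per 1e6 mapped reads), and 8 of them among the 16152 genes of the raw count table, which lacks *Mpo* and *Elane*. Lungs came from C57BL/6 mice with no treatment or engineered allele named, as embryos at E15.5 and E18.5 (embryonic days) and as pups at P5 and P8 (postnatal days), with 3 libraries each. The 3 animals of a time-point were littermates, so litter and age cannot be told apart and p-values measure the spread within a litter. The libraries held 41337443 to 53901957 counted reads, and 3 reads, taken as the limit of detection of a library, were worth 0.0482 to 0.0619 CPM (counting error only).

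Neutrophils are short-lived blood leukocytes that kill microbes with the contents of granules packed in a fixed order as the cell matures. Primary granules, with myeloperoxidase and the serine proteases, are filled at the promyelocyte stage, specific and gelatinase granules follow, and the mature cell that leaves the marrow no longer makes the mRNAs of the first set. Before birth most neutrophils are made in the fetal liver and then in the bone marrow. In lung, many neutrophils sit in the capillaries, and several of these proteins, lactoferrin and lipocalin 2 among them, are also secreted by airway epithelium.

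On the GRCm38 assembly (the mm10 build of the deposited counts, GENCODE M21 genes), 2 sets of members shared a chromosome. *S100a8* (chr3:90668978-90670035, plus strand) and *S100a9* (chr3:90692632-90695721, minus strand) lay 22.6 kb apart. On chromosome 9, *Camp* (chr9:109847379-109849617, minus strand) lay 570 kb from *Ngp* (chr9:110419747-110423012, plus strand), which lay 596 kb from *Ltf* (chr9:111019271-111042767, plus strand). The remaining members were on separate chromosomes: *Lcn2* at chr2:32384633-32388252, *Csf3r* at chr4:126024550-126044440, *Elane* at chr10:79886247-79888215, *Mpo* at chr11:87793581-87804413 and *Retnlg* at chr16:48872621-48874496.

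The 250 bases before the RefSeq start (GRCm38.p6) are given for 4 members that stand for the patterns described here: the neighbours *S100a8* (chr3:90668821-90669070, plus strand) and *S100a9* (chr3:90695722-90695971, minus strand), which rose together, *Ltf* (chr9:111019042-111019291, plus strand), which split the P8 libraries, and *Elane* (chr10:79886062-79886311, plus strand), which did not reach 1 CPM in any library. Capitals mark matches, on either strand, to TTNNGNAA (a core of C/EBP sites), GAGGAAG (a core of PU.1 and other ETS sites) or TATAAA (the TATA box).
S100a8: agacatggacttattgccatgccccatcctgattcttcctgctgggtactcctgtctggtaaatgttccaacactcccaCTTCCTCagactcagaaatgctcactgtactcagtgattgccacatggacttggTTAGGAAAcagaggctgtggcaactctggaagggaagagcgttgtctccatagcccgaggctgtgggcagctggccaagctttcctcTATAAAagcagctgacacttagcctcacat
S100a9: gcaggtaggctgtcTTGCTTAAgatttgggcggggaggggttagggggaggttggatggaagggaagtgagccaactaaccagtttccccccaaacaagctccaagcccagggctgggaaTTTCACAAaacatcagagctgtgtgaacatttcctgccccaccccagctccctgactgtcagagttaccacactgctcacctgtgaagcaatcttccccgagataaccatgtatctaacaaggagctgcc
Ltf: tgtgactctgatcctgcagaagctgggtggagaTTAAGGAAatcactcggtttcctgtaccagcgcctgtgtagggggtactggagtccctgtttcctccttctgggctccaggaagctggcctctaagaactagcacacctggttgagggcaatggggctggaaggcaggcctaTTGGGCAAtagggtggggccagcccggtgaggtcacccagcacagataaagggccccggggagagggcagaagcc
Elane: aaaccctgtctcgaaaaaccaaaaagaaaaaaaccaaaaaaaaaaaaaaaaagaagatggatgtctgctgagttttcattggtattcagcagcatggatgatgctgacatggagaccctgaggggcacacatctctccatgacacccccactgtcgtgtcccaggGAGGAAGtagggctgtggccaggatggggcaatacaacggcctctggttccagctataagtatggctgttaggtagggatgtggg
Matches to TTNNGNAA were present before the start of 6 of 10 members (*S100a8*, *S100a9*, *Retnlg*, *Ngp*, *Ltf* and *Lcn2*) and in 36.8% of the 32851 windows of all genes. GAGGAAG was present in 5 of 10 (*S100a8*, *Mpo*, *Elane*, *Lcn2* and *Csf3r*) and in 10.6% of windows. TATAAA was present in *S100a8*, 30 bases before the start, and in 12.4% of windows. No match overlapped another, and these are matches of letters, not sites shown to be bound.

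Before the results, 3 libraries have to be set apart. The summed level of 12 T cell and thymus markers was 45.3 CPM in E15.5 replicate 2, 253 CPM in P8 replicate 1 and 474 CPM in P8 replicate 2, against 4.50 to 29.7 CPM in the other 9 libraries. *Rag1*, a recombinase of developing lymphocytes, was at 77.8 and 156 CPM in those P8 libraries and at 4.19 CPM in P8 replicate 3. The edgeR counts or median changes of members and of related genes are therefore also given without these 3 libraries. That setting was chosen after the data were seen. The lung epithelium list was detected throughout, with *Sftpc*, the surfactant protein C gene, at 505 CPM or more in every library, but it was not constant. Its 8 genes summed to between 1786 and 2738 CPM at E18.5 and to between 15556 and 18030 CPM at P5, where 5 passed as higher and 1, *Epcam*, as lower. The part of this change in the CPM of other genes was not tested. *Ly6g*, the surface antigen that defines mouse neutrophils, had 0 reads in the 6 embryonic libraries, which allows up to the limit of detection given above, and lay between 0.0413 and 0.444 CPM in the 6 postnatal ones.

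**Figure D1:**
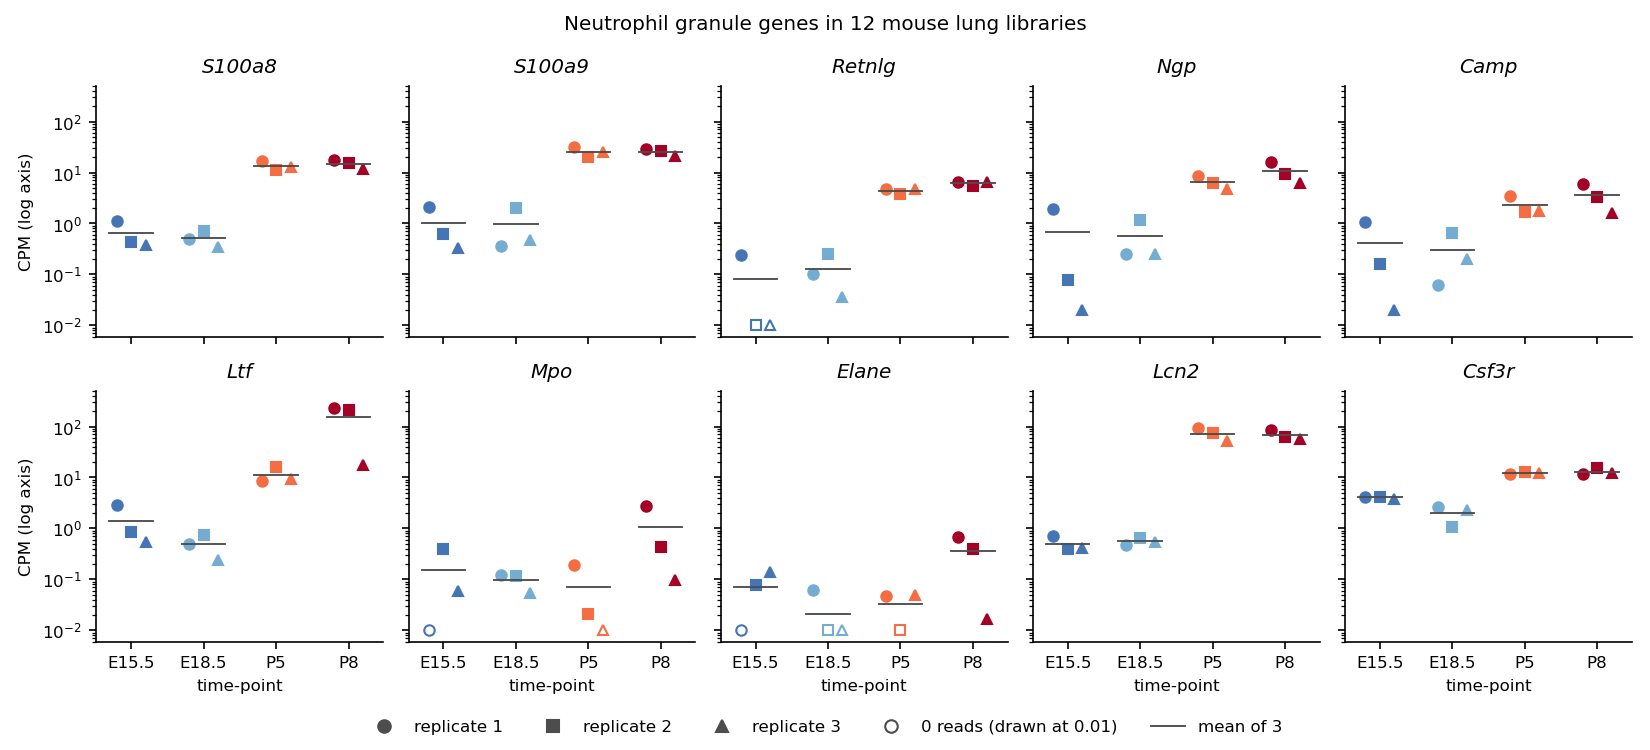
CPM (log axis) of the 10 genes in each library by time-point, with the mean of 3 as a line and open symbols at 0.01 for libraries with 0 reads. In 8 panels the P5 and P8 points lie above those of E15.5 and E18.5, *Mpo* and *Elane* overlap across birth, and in *Ltf* P8 replicate 3 sits at 17.8 CPM below the other P8 points.

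The question of the comparison across birth is which of these genes change between the last embryonic time-point and P5. In whole lung, 8 of 10 members were higher in every P5 library than in every E18.5 library, where 34.5% of the genes in the count table were. The 8 members in the count table passed both cutoffs of the edgeR fit (log2 fold change above 1 and false discovery rate, FDR, under 0.05), all higher at P5, against 17.5% of 15994 genes tested. Their log2 fold changes ran from 2.70 to 7.10 with a median of 4.71, and the median over all genes tested was 0.00. With the 3 libraries high in thymus markers left out, 8 of 8 again passed as higher, against 17.4% of genes. That 8 of 8 is a description rather than support, since 7 of the 8 reached the filter of 1 CPM in 3 libraries through postnatal libraries alone, and *Csf3r* was the member at 1 CPM in each embryonic library. More neutrophils in the tissue and more RNA per neutrophil cannot be told apart in bulk lung.

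*S100a8* and *S100a9* encode the subunits of calprotectin, the calcium- and metal-binding dimer that fills neutrophil cytosol. *S100a8* was at 1.13, 0.432 and 0.374 CPM at E15.5, at 0.493, 0.708 and 0.348 CPM at E18.5, at 16.6, 11.3 and 12.9 CPM at P5, and at 17.3, 15.2 and 11.8 CPM at P8. *S100a9* was at 2.15, 0.629 and 0.334 CPM at E15.5, at 0.369, 2.03 and 0.476 CPM at E18.5, at 31.0, 19.8 and 24.9 CPM at P5, and at 28.9, 26.4 and 20.8 CPM at P8. In both genes the embryonic time-points overlapped each other, the postnatal ones overlapped each other, and no embryonic library reached a postnatal one. Across birth *S100a8* rose 28.0-fold (log2 fold change 4.81, SE 0.39, edgeR FDR 3.3e-07) and *S100a9* rose 28.0-fold (4.81, SE 0.63, edgeR FDR 2.2e-05). Without E18.5 replicate 2, the highest E18.5 library for both, the *S100a9* log2 fold change was 5.98.

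The proportion of the calprotectin subunits was steadier after birth than before. Per base of exon, the *S100a9* to *S100a8* ratio lay between 2.23 and 2.57 in the 6 postnatal libraries and between 0.997 and 3.81 in the 6 embryonic ones. The embryonic ratios rest on 17 to 133 reads a gene and the postnatal ones on 545 to 1932. The wider embryonic range thus goes with fewer reads of both genes. Reads were counted to GENCODE M14 genes and divided here by M21 exon lengths.

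*Retnlg* encodes resistin-like gamma, a secreted protein used as a marker of mature mouse neutrophils. It was at 0.242, 0 and 0 CPM at E15.5 (15, 0 and 0 reads) and at 0.103, 0.249 and 0.0366 CPM at E18.5. It reached 4.72, 3.74 and 4.68 CPM at P5 and 6.51, 5.39 and 6.51 CPM at P8. The embryonic libraries were at most 15 reads and were separated from the postnatal ones, which had 181 or more. The rise from E18.5 to P5 was 35.6-fold (log2 fold change 5.15, SE 0.73, edgeR FDR 4.1e-05), and 6.04 on the log2 scale without E18.5 replicate 2. It was, with *Ltf*, a member whose 3 P8 libraries lay above all 3 P5 libraries (20.8% of genes did), although its P5 to P8 difference of 0.47 (SE 0.55) did not pass the test (edgeR FDR 0.591).

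*Ngp*, *Camp* and *Ltf* encode contents of the specific granules, made at the myelocyte stage. *Ngp*, a cystatin-like granule protein, was at 1.92, 0.0786 and 0.0197 CPM at E15.5, at 0.246, 1.19 and 0.256 CPM at E18.5, at 8.59, 6.13 and 4.75 CPM at P5, and at 15.9, 9.44 and 6.34 CPM at P8. *Camp*, the cathelicidin antimicrobial peptide precursor, was at 1.05, 0.157 and 0.0197 CPM at E15.5, at 0.0616, 0.651 and 0.201 CPM at E18.5, at 3.42, 1.65 and 1.78 CPM at P5, and at 6.07, 3.28 and 1.58 CPM at P8. At E15.5 replicate 1 stood far above the other libraries in both genes, with 119 reads of *Ngp* against 4 and 1 and 65 reads of *Camp* against 8 and 1. Between E18.5 and P5 *Ngp* rose 12.3-fold (log2 fold change 3.62, SE 0.99, edgeR FDR 0.0058) and *Camp* rose 7.96-fold (2.99, SE 0.96, edgeR FDR 0.014). The *Camp* call was the weakest of the 8. It was lost without E18.5 replicate 1 (2.53, edgeR FDR 0.0531), without E18.5 replicate 3 (2.76, edgeR FDR 0.0532) and without P5 replicate 1 (2.53, edgeR FDR 0.0501). Without E18.5 replicate 2, the highest E18.5 library in both, the *Ngp* and *Camp* values were 4.77 and 4.17.

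*Ltf* encodes lactoferrin, the iron-binding protein of specific granules that airway glands and epithelium also secrete. It was at 2.86, 0.845 and 0.531 CPM at E15.5, 0.493, 0.747 and 0.238 CPM at E18.5. It reached 8.54, 16.2 and 9.42 CPM at P5, and at P8 it was at 227, 209 and 17.8 CPM. Replicates 1 and 2 at P8 were apart from every other library, and P8 replicate 3 was just above the highest P5 library. Across birth *Ltf* rose 24.4-fold (log2 fold change 4.61, SE 0.98, edgeR FDR 0.0011).

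*Lcn2* encodes lipocalin 2, which sequesters bacterial siderophores and is held in specific granules and secreted by epithelia. It was at 0.694, 0.393 and 0.413 CPM at E15.5 and at 0.472, 0.651 and 0.549 CPM at E18.5. It was at 92.7, 73.0 and 51.0 CPM at P5 and 84.5, 62.9 and 57.1 CPM at P8. It showed the largest change of the 8 tested members across birth, 138-fold (log2 fold change 7.10, SE 0.31, edgeR FDR 3.2e-09), and the P5 and P8 libraries overlapped.

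*Lcn2* and *Ltf* also stand in the list of secretory airway genes, which moved with them. All 10 genes of that list, *Ltf* and *Lcn2* included, passed as higher from E18.5 to P5, where 17.5% of genes did. That count is a description rather than support, since *Ltf* reached 1 CPM in 1 embryonic library and *Lcn2* in 0. Through which libraries the others passed the filter was not counted. The sum of the 8 that are not members lay between 61.4 and 103 CPM at E18.5, whereas at P5 it lay between 3936 and 4935 CPM. The part of airway epithelium in the *Lcn2* and *Ltf* values was not tested.

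*Csf3r* encodes the receptor for granulocyte colony-stimulating factor, the cytokine that drives neutrophil production, and is also present on monocytes. It was at 4.16, 4.13 and 3.85 CPM at E15.5, at 2.59, 1.07 and 2.29 CPM at E18.5, at 11.6, 12.7 and 12.1 CPM at P5, and at 11.6, 15.3 and 12.2 CPM at P8. It was the member with the highest CPM at E15.5 in each of the 3 libraries. It rose 6.48-fold (log2 fold change 2.70, SE 0.25, edgeR FDR 8.3e-07) between E18.5 and P5, the smallest rise of the 8.

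*Mpo* and *Elane* encode myeloperoxidase and neutrophil elastase, the enzymes that mark primary granules and promyelocytes. *Mpo* was at 0, 0.393 and 0.0590 CPM at E15.5, at 0.123, 0.115 and 0.0549 CPM at E18.5, at 0.193, 0.0206 and 0 CPM at P5, and at 2.71, 0.425 and 0.0986 CPM at P8. *Elane* was at 0, 0.0786 and 0.138 CPM at E15.5, at 0.0616, 0 and 0 CPM at E18.5, at 0.0482, 0 and 0.0493 CPM at P5, and at 0.677, 0.392 and 0.0164 CPM at P8. Outside P8 neither gene exceeded 20 reads in a library, and *Elane* had at most 3 reads in each E18.5 and P5 library, so no fold change across birth is given for it. The highest values were those of P8 replicate 1, with 132 reads of *Mpo* and 33 of *Elane*.

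The CPM values are whole reads divided by the mapped reads of the library, which allowed *Mpo* and *Elane* to be tested on recovered reads of 25809 genes. In that fit 0 of 10 members passed between the embryonic time-points (against 2.12% of all genes, in either direction), with *Csf3r* alone at an unadjusted p under 0.05. In the same fit 8 of 10 passed as higher from E18.5 to P5 (14.1%), 1 from P5 to P8 (2.07%) and 8 from E15.5 to P8 (18.0%), and *Mpo* and *Elane* were not among them. Across birth *Mpo* had a log2 fold change of -0.28 (SE 1.47, edgeR FDR 0.908). From P5 to P8 it was 3.79 for *Mpo* (SE 1.39, edgeR FDR 0.106) and 3.31 for *Elane* (SE 1.46, edgeR FDR 0.181). Neither passed, and the errors are wide enough that a change of several fold in either direction across birth was not detectable for *Mpo* at this depth.

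**Figure D2:**
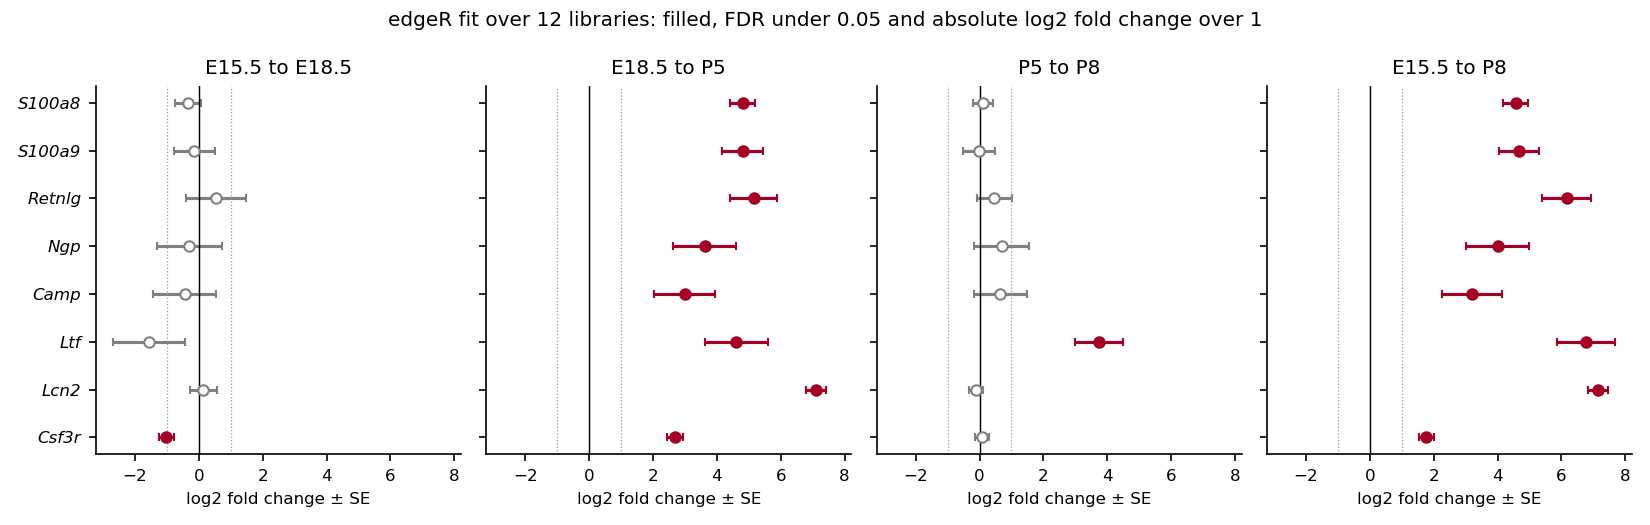
Log2 fold change with its standard error for the 8 members in the count table, in 4 comparisons of the edgeR fit over 12 libraries, with filled points where both cutoffs were passed. Filled points fill the E18.5 to P5 and E15.5 to P8 panels, and the other panels hold 1 each, *Csf3r* at -1.02 and *Ltf* at 3.73.

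Before birth, from E15.5 to E18.5, 1 of 8 tested members passed both cutoffs, *Csf3r*, which was lower at E18.5 (log2 fold change -1.02, SE 0.24, edgeR FDR 0.012), where 3.04% of all genes tested passed in either direction and 1.46% passed lower. All 3 E18.5 libraries of *Csf3r* lay below the E15.5 libraries, as for 19.7% of genes. The fold sits at the cutoff, and the call was lost without E18.5 replicate 2 (-0.72). The other 7 had log2 fold changes between -1.56 and 0.54, with edgeR FDR of 0.352 or more. Replicate 1 was the highest E15.5 library in 8 of 10 members (share of all genes not computed). Without it *Retnlg* (5.79, SE 1.38, edgeR FDR 0.0231) and *Ngp* (3.46, SE 1.04, edgeR FDR 0.0461) passed as higher at E18.5 along with *Csf3r*, but the *Retnlg* value then stands against 2 libraries with 0 reads and is no bound. The summed heart and skeletal muscle markers were 601 and 684 CPM in E15.5 replicates 1 and 2 and 20.5 CPM in replicate 3, and their part in these values was not tested. Without the 3 libraries high in thymus markers *Csf3r* was again the call (-1.01, SE 0.28, edgeR FDR 0.0317), where 0.898% of genes passed as lower.

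After birth, from P5 to P8, 1 of 8 tested members passed both cutoffs, *Ltf*, which was 13.3-fold higher at P8 (log2 fold change 3.73, SE 0.76, edgeR FDR 0.0079), where 2.88% of all genes tested passed as higher. The other 7 had log2 fold changes between -0.10 and 0.69, with edgeR FDR of 0.591 or more. Without the 3 libraries high in thymus markers, which leaves P8 replicate 3 as the P8 library and assumes that it varies like the other groups, the *Ltf* difference was 0.63 (SE 0.60, edgeR FDR 0.615) and 0 of 8 members passed in edgeR, with 0 at an unadjusted p under 0.05, where 0.573% of genes passed in either direction. The *Ltf* rise at P8 thus rested on replicates 1 and 2.

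A minority of neutrophil genes separated P8 replicates 1 and 2 from replicate 3 as *Ltf* did. With a threshold chosen after the values were seen, both libraries were more than 2-fold above replicate 3 in 6 of 74 tested genes of neutrophil production and function (*Asprv1*, *Cd177*, *Gfi1*, *Myb*, *Pglyrp1* and *Tnf*) and in 2.98% of all genes tested. Among the 8 tested members *Ltf* and *Camp* met it, and 6 of 10 airway secretory genes did, *Ltf* included. *Fpr1*, a receptor of mature neutrophils, did not, lying between 9.54 and 11.4 CPM at P8, nor did the stefin *Stfa2*, between 3.29 and 4.10 CPM. *Asprv1*, an aspartic protease listed with mature neutrophils and known from epidermis, was at 47.8, 38.4 and 2.51 CPM. *Cd177*, the neutrophil surface protein of specific granules, was at 8.50, 8.51 and 2.89 CPM, and *Il1r2*, the decoy interleukin 1 receptor, which did not pass the filter, at 6.18, 5.37 and 0.460 CPM. Among airway secretory genes, *Reg3g*, an antimicrobial lectin, was at 204, 206 and 25.7 CPM, *Scgb3a1*, a secretoglobin of large airways, at 293, 313 and 70.3 CPM, and *Muc5b*, a gel-forming mucin, at 64.5, 73.2 and 14.7 CPM. The sum of the 8 airway genes other than *Ltf* and *Lcn2*, in which *Scgb1a1* has most of the reads, did not separate them, at 7152, 7931 and 7546 CPM. *Retnlg*, at 6.51, 5.39 and 6.51 CPM, and *Lcn2*, at 84.5, 62.9 and 57.1 CPM, did not separate them either. The summed heart and skeletal muscle markers were 458, 295 and 56.8 CPM in P8 replicates 1, 2 and 3. The part of thymus, airway or muscle tissue in the *Ltf* values was not tested.

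**Figure D3:**
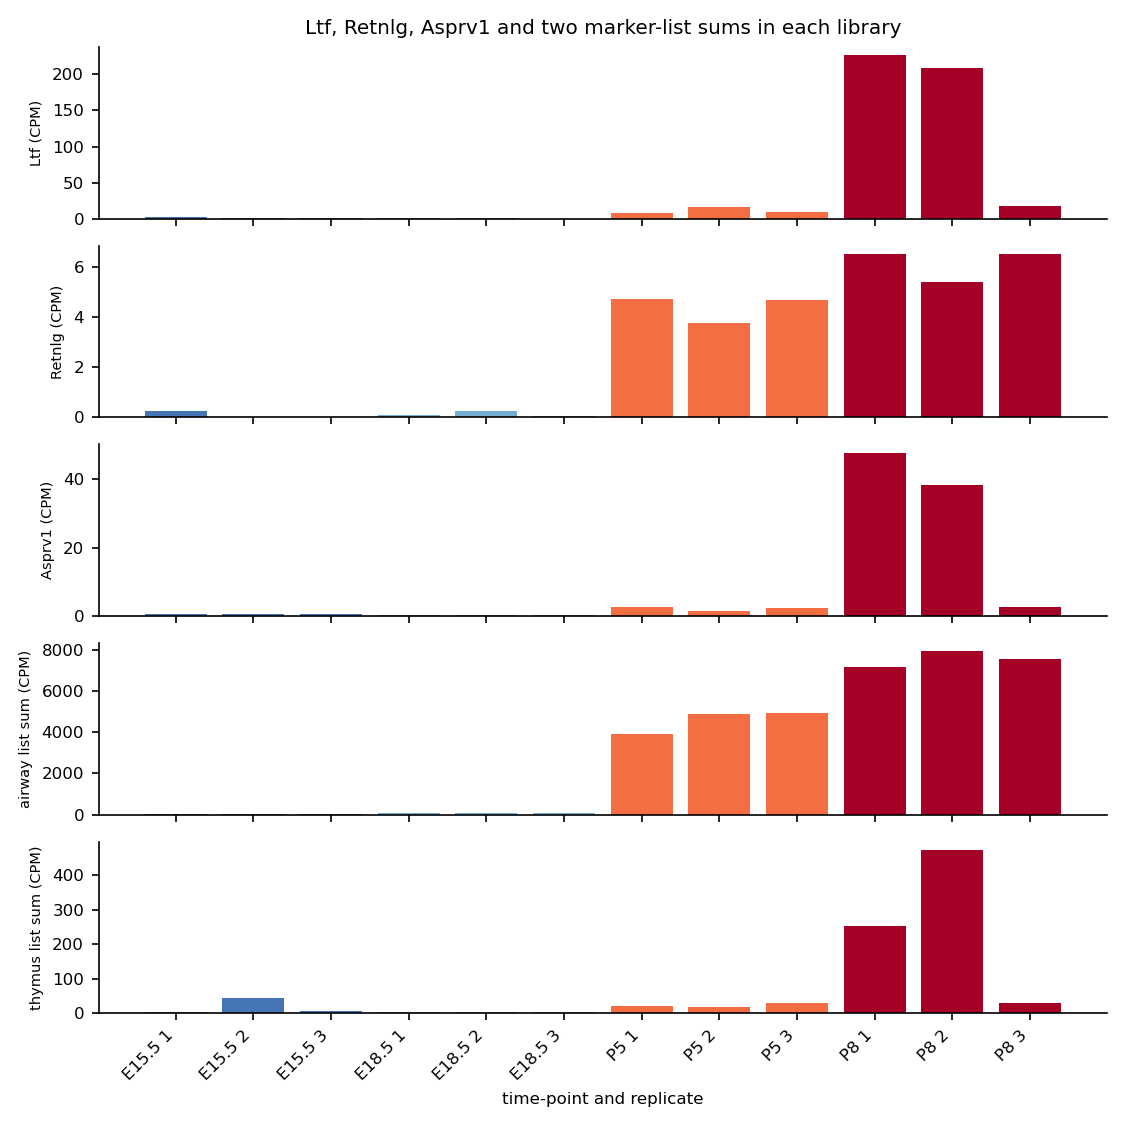
Bars give CPM in each of the 12 libraries for *Ltf*, *Retnlg*, *Asprv1*, the sum of 8 airway secretory genes without *Ltf* and *Lcn2*, and the sum of 12 thymus markers, each on an axis from 0. *Ltf*, *Asprv1* and the thymus sum stand out in P8 replicates 1 and 2, whereas *Retnlg* and the airway sum are alike in the 3 P8 libraries.

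Over the whole span, from E15.5 to P8, the 8 tested members passed as higher at P8, against 20.9% of all genes tested. That count is again a description rather than support, since 7 of the 8 reached the filter through postnatal libraries alone. Their log2 fold changes ran from 1.76 (*Csf3r*, SE 0.23) to 7.14 (*Lcn2*, SE 0.32). *Ltf* was 110-fold higher (6.78, SE 0.91, edgeR FDR 2e-05) and, without the 3 libraries high in thymus markers, its log2 fold change was 3.45 (SE 0.67, edgeR FDR 0.00086). In that setting *Camp* did not pass (1.60, SE 1.15, edgeR FDR 0.235), which left 7 of 8, against 20.1% of genes. Without E15.5 replicate 1 the log2 fold changes of *Retnlg*, *Ngp* and *Camp* were 11.41, 7.76 and 5.41 in place of 6.16, 4.01 and 3.20, but they then stand against 2 libraries with 0 reads of *Retnlg* and 8 or fewer of the other genes, so they depend on the prior count of the fit and are no bounds. This comparison shares its libraries with the others and is not independent of them.

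The order of the members by level per kilobase of exon changed across the time course. At P5 *S100a9* led with 48.4 ± 10.7 CPM per kb (SD, n = 3), followed by *Lcn2* with 27.5 ± 7.9, *S100a8* with 19.6 ± 4.0, *Retnlg* with 7.39 ± 0.94 and *Ngp* with 5.31 ± 1.59. *Csf3r* at 3.36 ± 0.15, *Ltf* at 3.30 ± 1.21 and *Camp* at 3.01 ± 1.30 CPM per kb lay within each other's spread. *Elane* at 0.0330 ± 0.0286 and *Mpo* at 0.0208 ± 0.0309 CPM per kb came last. At P8 *Ltf* moved to the second place with 43.8 ± 33.6 CPM per kb, a spread that reaches the levels of *S100a9* (48.6 ± 8.0) and *Lcn2* (26.0 ± 5.5). At E15.5 *S100a9* (1.99 ± 1.86 CPM per kb) and *Csf3r* (1.12 ± 0.05) did not differ beyond their spread.

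Libraries of a time-point differed in most members at the same time. Replicate 2 was the highest E18.5 library in 7 of 10 members, replicate 1 the highest P5 library in 7, and replicate 1 the highest P8 library in 8, while P8 replicate 3 was the lowest in 8. The share of all genes highest or lowest in these libraries was not computed, and the counts include *Mpo* and *Elane* at few reads. The library highest in most members also had the highest erythroid sum at each time-point. At E15.5 this was replicate 1, the highest in 8 members, with 4994 CPM against 3772 and 3901 CPM. E18.5 replicate 2 had 4748 CPM against 4007 and 4334 CPM. P5 replicate 1 had 19674 CPM against 11998 and 13174 CPM, and P8 replicate 1 had 14789 CPM against 10490 and 12305 CPM. In P5 replicate 1 *Alas2*, the erythroid heme synthesis enzyme, was at 334 CPM against 159 and 154 CPM. The part of blood content in these differences was not tested. *Csf3r* shared this order at E15.5 but was lowest in E18.5 replicate 2. Other members departed from it too, with *Ltf* highest in P5 replicate 2 and *Retnlg* in P8 replicate 3.

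The balance of precursor against mature transcripts was followed as the log2 ratio of the summed CPM of *Mpo*, *Elane*, *Prtn3* and *Ctsg* (proteases and peroxidase of primary granules) to that of *Retnlg*, *S100a8*, *S100a9* and *Csf3r*, with 0.1 CPM added to each sum. The ratio was -2.05, -1.47 and -1.66 at E15.5, -1.31, -2.30 and -2.32 at E18.5, -6.56, -5.97 and -6.24 at P5, and -3.61, -5.12 and -5.46 at P8. The 6 embryonic libraries averaged -1.85 ± 0.43 and the 6 postnatal ones -5.49 ± 1.06 (SD), a difference of -3.64, and the groups did not overlap. No p-value is given for this score, since its genes were chosen with earlier results known. The mature sum rose from between 3.15 and 7.68 CPM before birth to between 47.5 and 64.3 CPM after it, whereas the precursor sum lay between 0.549 and 1.81 CPM before birth and between 0.578 and 5.17 CPM after it. Most of the embryonic precursor sum was *Prtn3*, proteinase 3, at 0.494 to 1.66 CPM. Much of the embryonic mature sum was *Csf3r*, at 1.07 to 4.16 CPM, whereas after birth *Csf3r* was at 11.6 to 15.3 CPM. Since *Csf3r* is also present on monocytes, the score need not follow a single cell type. With *Mpo* and *Elane* over *Retnlg* and *Csf3r* alone the difference was -1.79, and embryonic and postnatal libraries overlapped. In that version E15.5 replicate 1 had 0 reads of *Mpo* and *Elane*, and P8 replicate 1 had 132 and 33.

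**Figure D4:**
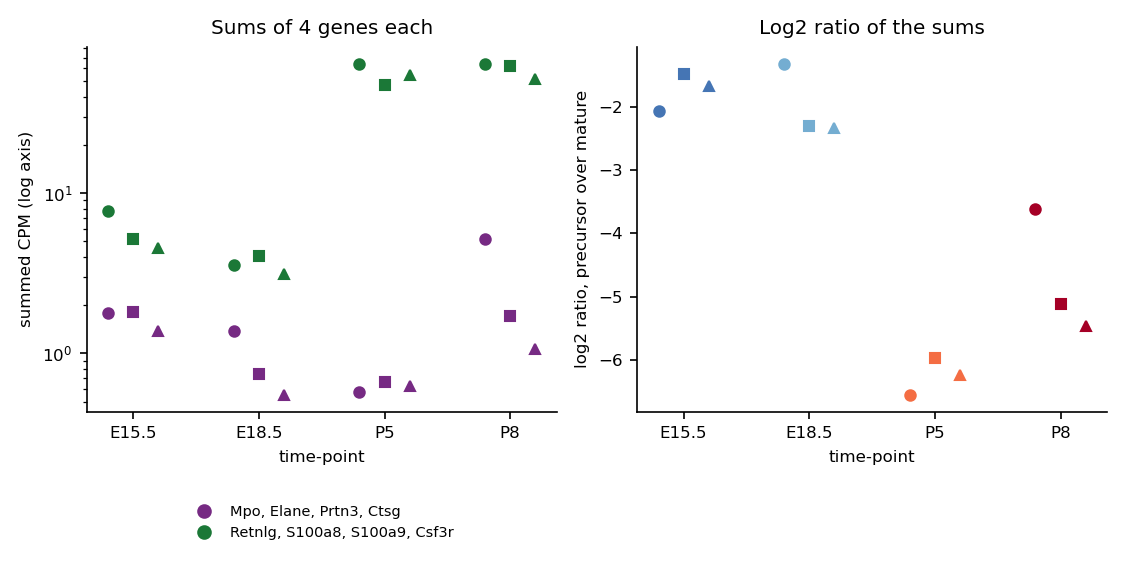
Left, summed CPM (log axis) of 4 precursor genes and 4 mature genes in each library (circle, square and triangle for replicates 1, 2 and 3). Right, the log2 ratio of the sums, which lies between -2.32 and -1.31 in the embryonic libraries and between -6.56 and -3.61 in the postnatal ones.

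Other genes of neutrophil production and function were taken from 8 fixed lists with 93 genes, of which 74 passed the filter. Between E18.5 and P5, 58 of the 74 rose and 0 fell, against 17.5% and 9.34% of all genes tested, with a median log2 fold change of 2.74. Among the 46 that reached 1 CPM in 3 embryonic libraries, 31 rose, and the other 28 passed the filter through postnatal libraries. The 58 of 74 is therefore a description rather than support. The share of all genes at that embryonic level that rose was not computed. Without the 3 libraries high in thymus markers 58 of 73 rose, against 17.4% of genes.

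In the primary granule list 4 of 6 tested genes rose, with 2 not passing. *Nkg7*, a granule membrane protein shared with cytotoxic lymphocytes, rose by 3.40 (log2, SE 1.07, edgeR FDR 0.0123), *Serpinb1a*, an elastase inhibitor, by 2.86 (SE 0.19), *Igsf6* by 2.59 (SE 0.27) and *Srgn*, the granule proteoglycan serglycin, by 2.55 (SE 0.09). *Prtn3* had a difference of -1.05 (SE 0.51, edgeR FDR 0.083) and the tetraspanin *Cd63* one of 0.20 (SE 0.06). The genes of this list that rose are not restricted to promyelocytes.

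In the specific and gelatinase granule list 9 of 11 tested genes rose. *Chil3*, a chitinase-like protein that alveolar macrophages also make, rose by 7.29 (log2, SE 0.45), *Mmp9*, gelatinase B, by 4.23 (SE 0.58), *Hp*, haptoglobin, by 4.01 (SE 0.24) and *Cd177* by 3.32 (SE 0.49), each with edgeR FDR of 5.9e-05 or less. In the mature neutrophil list 22 of 23 rose. *Lrg1*, a secreted glycoprotein also made by endothelium, rose by 7.59 (SE 0.53), *Stfa2*, a stefin, by 7.49 (SE 1.02), *Fpr1*, the formyl peptide receptor, by 5.38 (SE 0.42) and *Il1b*, interleukin 1 beta, by 5.35 (SE 0.63). *Padi4*, the enzyme that citrullinates histones in extracellular traps, was the exception at 0.07 (SE 0.33).

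The 6 subunit genes of the NADPH oxidase, which makes superoxide in phagocytes, rose together across birth. *Cybb*, the catalytic subunit, rose by 3.79 (log2, SE 0.20), *Ncf4* by 2.97 (SE 0.22) and *Rac2* by 2.69 (SE 0.26). In the adhesion and rolling list 7 of 8 rose, among them the integrin subunits *Itgb2* at 4.33 (SE 0.19) and *Itgal* at 3.81 (SE 0.28), and *Selplg*, the P-selectin ligand, at 3.26 (SE 0.28). *Vcam1* had a difference of -0.73 (SE 0.07), inside the fold cutoff.

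Among granulopoiesis transcription factors 4 of 9 rose, *Spi1* (PU.1) by 2.68 (log2, SE 0.13), *Klf4* by 2.34 (SE 0.15), *Cebpa* by 1.47 (SE 0.14) and *Irf8* by 1.27 (SE 0.14), and the other 5 did not pass. *Cebpe*, the factor of specific granule genes, was outside the count table, at up to 0.161 CPM before birth and 0.268 to 0.883 CPM after it. Of the cytokine and chemoattractant list 4 of 12 genes were tested. *Cxcl15*, lungkine, an epithelial chemokine of lung, rose by 5.54 (SE 0.15) and *Tnf* by 3.74 (SE 0.61). *Csf3*, the ligand of *Csf3r*, did not exceed 0.225 CPM in any library, and *Il17a* had 0 reads in each of them. Of 7 receptors and partners 4 rose, *Cd36* by 4.76 (SE 0.30), *Ager* by 3.78 (SE 0.18), *Tlr4* by 2.80 (SE 0.20) and *Lrp2* by 2.36 (SE 0.23). *Ager*, the receptor for S100 proteins, is also the classical alveolar type 1 cell gene.

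From E15.5 to E18.5, 4 of the 74 related genes passed, against 3.04% of all genes tested. *Slpi*, a leukocyte protease inhibitor, rose by 1.55 (log2, SE 0.37), *Hp* by 1.47 (SE 0.24) and *Hdc*, histidine decarboxylase, by 1.09 (SE 0.24). *Slc22a17*, the lipocalin 2 receptor, fell by 1.25 (SE 0.11). With the FDR alone 14 of 74 passed, against 21.5% of genes, and without the 3 libraries high in thymus markers 6 of 73 passed both cutoffs, against 2.35%. From P5 to P8, 10 passed, each higher, against 2.88%. They included *Asprv1* (3.74, SE 0.74), the transcription factors *Gfi1* (3.36, SE 0.89) and *Myb* (1.70, SE 0.37), and *Mmp9* (1.63, SE 0.47) and *Chil3* (1.61, SE 0.28). With the FDR alone 23 passed, against 18.0% of genes. The count at both cutoffs was 5 without P5 replicate 2 or P5 replicate 3 and 6 without P8 replicate 1 or P8 replicate 2. Over all genes tested the count, in either direction, also fell, from 474 to 309, 258, 268 and 198 in those settings. Without the 3 libraries high in thymus markers P8 replicate 3 is the P8 library left. There the 73 related genes had a median P5 to P8 log2 fold change of 0.23, against -0.0060 over all genes tested. With all 12 libraries the median of the 74 was 0.36. *Gfi1* and *Myb* are also expressed by thymocytes, and *Gfi1* was at 4.39, 6.62 and 0.657 CPM in the P8 libraries. From E15.5 to P8, 63 of the 74 rose and 1, *Slc22a17*, fell, against 20.9% and 11.5% of genes. This count too is a description, since 28 of the 74 passed the filter through postnatal libraries. With those 3 libraries left out 60 of 73 passed, each higher, where 20.1% of genes passed as higher and 12.3% as lower.

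**Figure D5:**
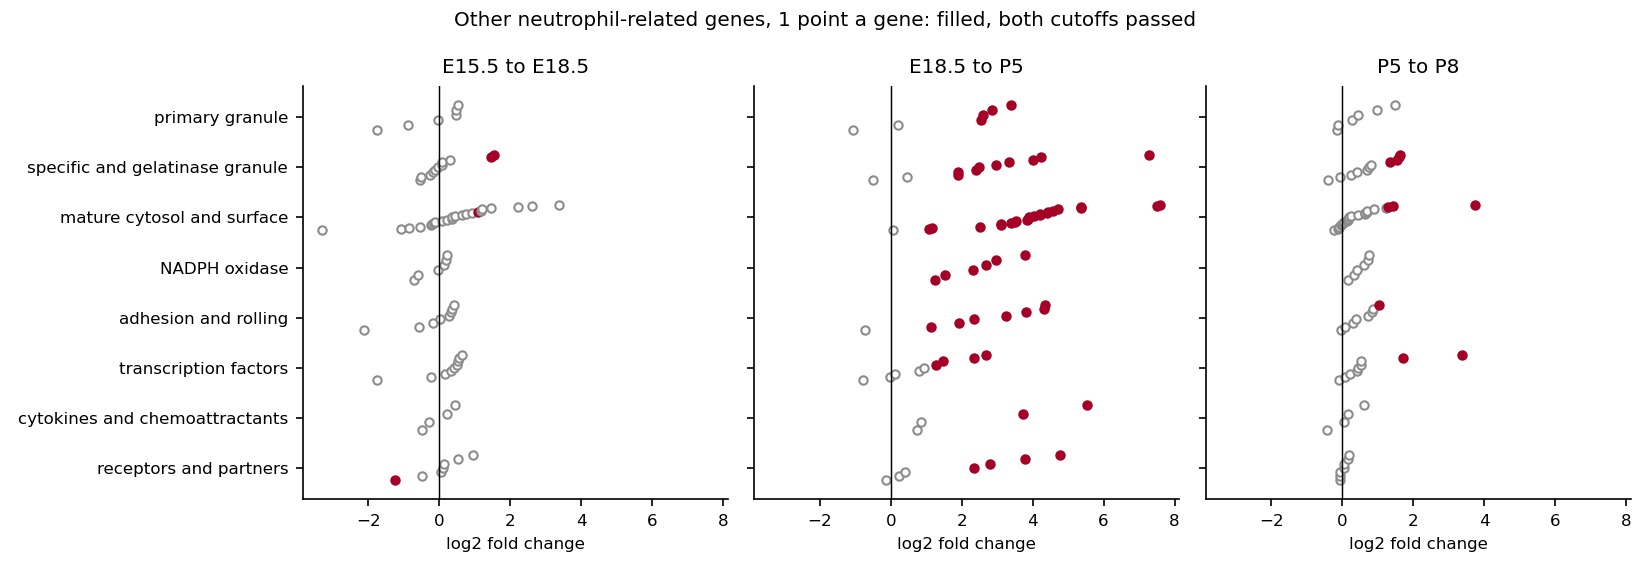
Log2 fold change of the 74 tested genes in 8 neutrophil-related lists, 1 point a gene, with filled points where both cutoffs were passed. From E18.5 to P5, 58 points are filled and lie to the right of 0, against 4 filled points in the E15.5 to E18.5 panel and 10 in the P5 to P8 panel.

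Markers of other blood cells also moved across birth. From E18.5 to P5 passed as higher 7 of 12 macrophage, 6 of 8 monocyte, 3 of 3 tested eosinophil and basophil, 4 of 5 mast cell, 7 of 11 T cell and thymus, 8 of 8 B cell, 7 of 8 erythroid and 3 of 6 platelet genes, where 17.5% of all genes tested did. These counts are descriptions rather than support, since genes can pass the filter through postnatal libraries alone. How many did so was not counted. The eosinophil and basophil list summed to at most 1.89 CPM before birth. In the monocyte list 1 gene, *F13a1*, passed as lower, with a mean of 24.4 CPM at E18.5 falling to 9.66 CPM at P5, where 9.34% of genes did. The macrophage sum lay between 114 and 139 CPM before birth, between 240 and 308 CPM at P5 and between 399 and 429 CPM at P8. The monocyte sum lay between 243 and 428 CPM before birth and between 1136 and 1323 CPM after it. Most of that sum was *Fn1*, so it mainly follows that gene and is no measure of monocytes. The B cell sum lay between 3.29 and 6.09 CPM before birth and between 95.1 and 169 CPM after it. The liver list, which would mark hepatic tissue, summed to at most 6.27 CPM before birth and to 14.9, 138 and 47.6 CPM at P8. The part of these cells in the values of *Csf3r*, *S100a8*, *Lcn2* and the shared oxidase and adhesion genes was not tested.

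The genes most like the members were named by Pearson's r between log2(CPM + 0.1) of each of 15247 other genes and the mean standardised profile of the 10 members over 12 libraries. The 10 most alike were *Cd177* (0.985), *Was*, *Pex16*, *Irf5*, *Samsn1*, *Hagh*, *Lpl*, *Chil3*, *Plbd1* and *Krt23* (0.975). Among the members themselves r ran from 0.513 for *Mpo* and 0.566 for *Elane* to 0.970 for *Ltf*. Each member is part of the mean it was set against, which raises its r above that of an outside gene. These libraries share the step at birth, which 34.5% of genes show as no overlap in this direction, so a high r is a description. After the mean of each time-point was taken away, the 10 most alike ran from *Gm8960* (0.919) to *Gm9512* (0.856), with *Pex16* (0.894) in both lists, and held *Rpl18-ps1* and *Rps4x-ps*, which are named as ribosomal protein pseudogenes and could share reads with their parent genes. In that measure the members, each again part of the mean, ran from 0.918 for *Camp* to -0.244 for *Csf3r*.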

How the data were processed

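The members and gene lists were chosen with earlier results of these data known, and named genes follow a written rule: every member, up to 4 genes per related list that passed from E18.5 to P5 by largest change, any gene needed for a count of 5 or fewer, and the 10 most alike genes. Some genes that the rule would name are not reported here. *Cebpe*, *Csf3*, *Il17a*, *Cd63*, *Vcam1*, *Padi4*, *Prtn3*, *Il1r2*, *Pglyrp1*, *Epcam*, *F13a1* and the airway, thymus and *Alas2* values were added after their values were seen.

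RNA of flash-frozen lungs was sequenced as paired ends. The authors aligned reads to mm10 with TopHat2 2.1.1 and Bowtie2 2.3.4 and deposited raw read counts per gene from HTSeq 0.10.0 (Gencode vM14). The deposited CPM values are the count divided by mapped reads. The authors' table of percent spliced in was not used, since its rows carry no gene. Whether lungs were perfused is not given in the sources used here. CPM times mapped reads gave whole reads for 100% of values (tolerance 0.01), equal to the counts where both exist. The edgeR test on these recovered reads took 25809 genes with 10 or more reads in all and called 3627 as higher and 1767 as lower from E18.5 to P5. Ensembl IDs matched a symbol for 99.6% of genes.

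Counts were fitted with edgeR 4.0.16 (R 4.3.3), TMM scaling and glmQLFTest over 12 libraries in 4 groups, for the 15994 genes that reached 1 CPM in 3 or more libraries, with Benjamini-Hochberg adjustment. SE is the log2 fold change over the root of its F. The code was tested on simulated data. Alternatives were library size scaling, DESeq2 1.42.0, the likelihood ratio test, no filter, recovered reads, FDR alone, limma 3.58.1 on log2(CPM + 1), a replicate block, and leaving out each library. No replicates within a time-point were alike enough to be the same library. Counting was not stated to use strand, so overlapping genes cannot be told apart.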

Additional observations from a re-analysis of the deposited data

How the results depend on the processing

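Of 184 counts and score values under alternatives, 168 stayed within 1.5 times the reported count or on the same side of the test. The cause of each change was not tested. Members called from E15.5 to E18.5, 1 as reported (*Csf3r*), were 0 on recovered reads and with limma, and 0 to 3 when a library was left out. Related genes called in that comparison, 4 as reported, were 7 with DESeq2, 9 with the likelihood ratio test, 2 with limma, 14 with FDR alone and 3 to 6 when a library was left out. Over all genes, 487 as reported, the counts were 597, 615, 150, 3441 and 284 to 572 in the same order. Related genes called from P5 to P8, 10 as reported, were 23 with FDR alone and 5 to 10 when a library was left out. Over all genes, 474 as reported, the counts were 2872 and 198 to 682. Without the 3 libraries high in thymus markers, chosen after seeing the data, P8 replicate 3 is the P8 library left. The median P5 to P8 log2 fold change was then -0.15 for members and 0.23 for related genes. With all 12 libraries these medians were 0.29 and 0.36. The precursor to mature difference was -1.79 with *Mpo* and *Elane* over *Retnlg* and *Csf3r*, where embryonic and postnatal libraries overlapped.

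No called value changed sign. Among values that did not pass, leaving out 1 library spanned 0 from E15.5 to E18.5 for *S100a8* (-0.64 to 0.35), *S100a9* (-1.31 to 0.99), *Retnlg* (-0.35 to 5.79), *Ngp* (-1.45 to 3.46), *Camp* (-1.63 to 1.76) and *Lcn2* (-0.0059 to 0.47), and from P5 to P8 for *S100a8* (-0.058 to 0.30), *S100a9* (-0.18 to 0.19), *Lcn2* (-0.33 to 0.14) and *Csf3r* (-0.030 to 0.13). From P5 to P8 *S100a9* was 0.0058 with library size scaling and 0.018 with limma. From E15.5 to E18.5 *Ngp* was 0.031 with limma. Without the 3 libraries high in thymus markers *S100a8* was -0.23, *Ngp* -0.066, *Camp* -0.57 and *Csf3r* -0.014 from P5 to P8, and *Lcn2* -0.0077 from E15.5 to E18.5.

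Replicate numbers are shared across time-points but come from different litters, and same-numbered libraries did not deviate together (r from -0.288 to 0.265 over 18 pairs, 4 of them over 0.1). With the replicate block, members called were 1, 8, 1 and 8 in the 4 comparisons, related genes 4, 58, 9 and 64, and the E15.5 to E18.5 values of *Ngp* and *Camp* were 0.25 and 0.10. Depth limits *Mpo* and *Elane*, with 0 to 132 reads a library, and *Retnlg*, *Ngp* and *Camp* before birth.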
